A study of Mus musculus with 9 samples.

Results

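The AP-1 genes Fos, Fosb, Fosl1, Fosl2, Jun, Junb, Jund and Atf3 were followed in the mouse fibroblast line NIH 3T3, 1 hour after serum was added. These 8 genes were chosen by name from the 19935 genes with a probe set of a single symbol, and each had 1 such probe set on the Affymetrix Mouse Gene 1.0 ST array. The study compared 3 groups of 3 biological replicates, 1 array each: cells stably carrying the pLKO.1 vector (control), an shRNA that targets Net, or one that targets Sap-1. Net is the protein of Elk3 and Sap-1 that of Elk4, 2 of the 3 ternary complex factors, which bind DNA with the serum response factor Srf. All groups attached to fibronectin for 2 hours, were starved of serum overnight and then received bovine serum, at 10% by the protocols of the samples and at 20% by the text on the whole series. The labels describe the control both as a vector and as a control shRNA plasmid, and do not say whether a group is 1 clone, 1 pool or several lines. The p-values below therefore weigh differences against the spread between arrays within groups. They cannot be taken to cover variation between independently made lines. No unstimulated array was used, so the induction of these genes by serum was not measured here.

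AP-1 is a dimer of basic leucine zipper (bZIP) proteins that binds DNA and turns growth factor and stress signals into transcription. Fos family proteins (c-Fos, FosB, Fra-1 from Fosl1 and Fra-2 from Fosl2) need a Jun partner to bind, whereas Jun family proteins (c-Jun, JunB and JunD) also pair among themselves and with ATF proteins such as Atf3. Most of these genes are immediate early genes, which fibroblasts transcribe within minutes of serum without new protein synthesis. The Fos gene is the classic target of the ternary complex factors, which act with Srf at its serum response element.

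Promoter windows of 4 members are shown because these genes moved in different ways. Fos, Fosl2 and Junb were higher with the Net than with the Sap-1 shRNA, and Fosb was lower than control in both. The windows are the 250 bases before the RefSeq start (GRCm38.p6), written 5′ to 3′ on the gene's own strand, with motif matches in capitals. They lie at chr12:85473640-85473889 on the plus strand for Fos, chr5:32136222-32136471 on the plus strand for Fosl2, chr8:84978749-84978998 on the minus strand for Junb and chr7:19310046-19310295 on the minus strand for Fosb.
Fos: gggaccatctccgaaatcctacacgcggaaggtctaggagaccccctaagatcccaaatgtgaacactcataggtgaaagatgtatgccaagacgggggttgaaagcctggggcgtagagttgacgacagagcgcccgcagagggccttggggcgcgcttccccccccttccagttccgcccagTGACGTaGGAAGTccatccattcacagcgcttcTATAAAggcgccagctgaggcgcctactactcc
Fosl2: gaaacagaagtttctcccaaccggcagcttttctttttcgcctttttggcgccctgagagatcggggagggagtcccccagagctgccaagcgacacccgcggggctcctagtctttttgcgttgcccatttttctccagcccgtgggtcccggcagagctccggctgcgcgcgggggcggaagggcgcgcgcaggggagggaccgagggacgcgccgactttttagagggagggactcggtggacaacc
Junb: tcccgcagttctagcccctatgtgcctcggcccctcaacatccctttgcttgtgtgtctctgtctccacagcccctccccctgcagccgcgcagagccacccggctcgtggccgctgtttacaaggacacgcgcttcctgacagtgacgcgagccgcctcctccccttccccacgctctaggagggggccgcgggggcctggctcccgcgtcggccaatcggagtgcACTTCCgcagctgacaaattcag
Fosb: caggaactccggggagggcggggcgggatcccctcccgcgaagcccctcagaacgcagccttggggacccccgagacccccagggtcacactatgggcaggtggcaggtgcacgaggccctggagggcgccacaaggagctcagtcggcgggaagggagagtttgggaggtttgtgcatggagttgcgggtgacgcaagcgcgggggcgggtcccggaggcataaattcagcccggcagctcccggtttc

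The serum response element of Fos lies further upstream than this window. The motifs were searched on both strands in the windows of 7 members. No window of Fosl1 was available, so that gene was not searched. The Fos window holds TGACGT (a core of the cAMP response element, 66 bases before the start), GGAAGT (a match to the ETS core, 59 bases before) and TATAAA (33 bases before). The Junb window holds GGAAGT on the opposite strand, 23 bases before the start. The Fosl2 and Fosb windows, and that of Jund, hold none of the 9 motifs. The Jun window holds TGACATCA, a variant AP-1 site, 45 bases before the start, and the Atf3 window holds TTACGTCA 10 bases before it, which overlaps TGACGT read on the other strand. The other motifs searched were the AP-1 site TGANTCA, the full cAMP response element TGACGTCA, the ETS site CCGGAA and the CArG box bound by Srf. None of the 7 windows searched holds one of these. Among 32851 windows of this length, GGAAGT is in 19.7%, TATAAA in 12.4%, CCGGAA in 12%, TGANTCA in 6.75%, TGACGT in 6.47%, TGACATCA in 2.93%, TGACGTCA in 1.55%, the CArG box in 1.47% and TTACGTCA in 0.447%. These matches describe letters and not bound sites.

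The arrays were alike in scale, with median log2 levels of 7.47 to 7.54 and correlations across probe sets of 0.9981 to 0.9992 within groups and 0.9879 to 0.9947 between them. The targeted factors were examined first. Elk3 fell by 0.42 (SE 0.04, limma adjusted p = 1.1e-05) and Elk4 by 0.44 (SE 0.04, adjusted p = 2.3e-05) in Net shRNA cells, so the Net shRNA arrays carried less of both mRNAs. Elk4 fell by 1.54 (SE 0.04, adjusted p = 9.2e-10) and Elk3 by 0.12 (SE 0.04, adjusted p = 0.023) in Sap-1 shRNA cells. Of 12 fibroblast markers, 11 were measured, with list medians of 12.96 to 13.03 per group, where the median of all genes was 7.78 to 7.82. Lists of macrophage, epithelial, endothelial, adipocyte and skeletal muscle markers had medians of 6.09 to 7.10. The summed fibroblast markers were at 16.59 to 16.61 on control, 16.53 to 16.58 on Net shRNA and 16.49 to 16.52 on Sap-1 shRNA arrays. In Net shRNA cells Pdgfra (log2 difference from control -0.26), Pdgfrb (-0.14) and Fn1 (-0.13) were lower and P4hb (0.15) higher. In Sap-1 shRNA cells Pdgfra (-1.74), Col3a1 (-0.34), Thy1 (-0.32) and Col1a1 (-0.13) were lower and P4hb (0.21) higher. The other fibroblast markers measured did not pass. The summed macrophage markers were at 9.89 to 9.91 on control, 10.01 to 10.10 on Net shRNA and 9.82 to 9.88 on Sap-1 shRNA arrays. In Net shRNA cells Cd14 (log2 difference from control 0.41) and Cd68 (0.23) passed. The other macrophage markers did not pass there: Fcgr1 was at 0.12, Adgre1 and Itgam at 0.01, Ptprc at -0.03, Csf1r at -0.04 and Mrc1 at -0.10. In Sap-1 shRNA cells Cd14 was at 0.21 and Cd68 at -0.23. The summed endothelial markers were at 10.19 to 10.28 on Net shRNA arrays, 9.76 to 9.85 on control and 9.94 to 10.00 on Sap-1 shRNA arrays. Only some endothelial genes moved. With the Net shRNA the log2 differences of Tek, Cdh5 and Emcn from control were 1.84, 0.19 and 0.27, and that of Cdh5 did not pass. With the Sap-1 shRNA they were -0.30, 0.84 and 0.89, so Tek went against the other genes there. Pecam1, Kdr, Tie1, Vwf and Esam passed in neither knockdown. The part of these lists in the results below was not tested. In such bulk RNA, fewer cells expressing a gene and less of its RNA per cell cannot be told apart.

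**Figure D1:**
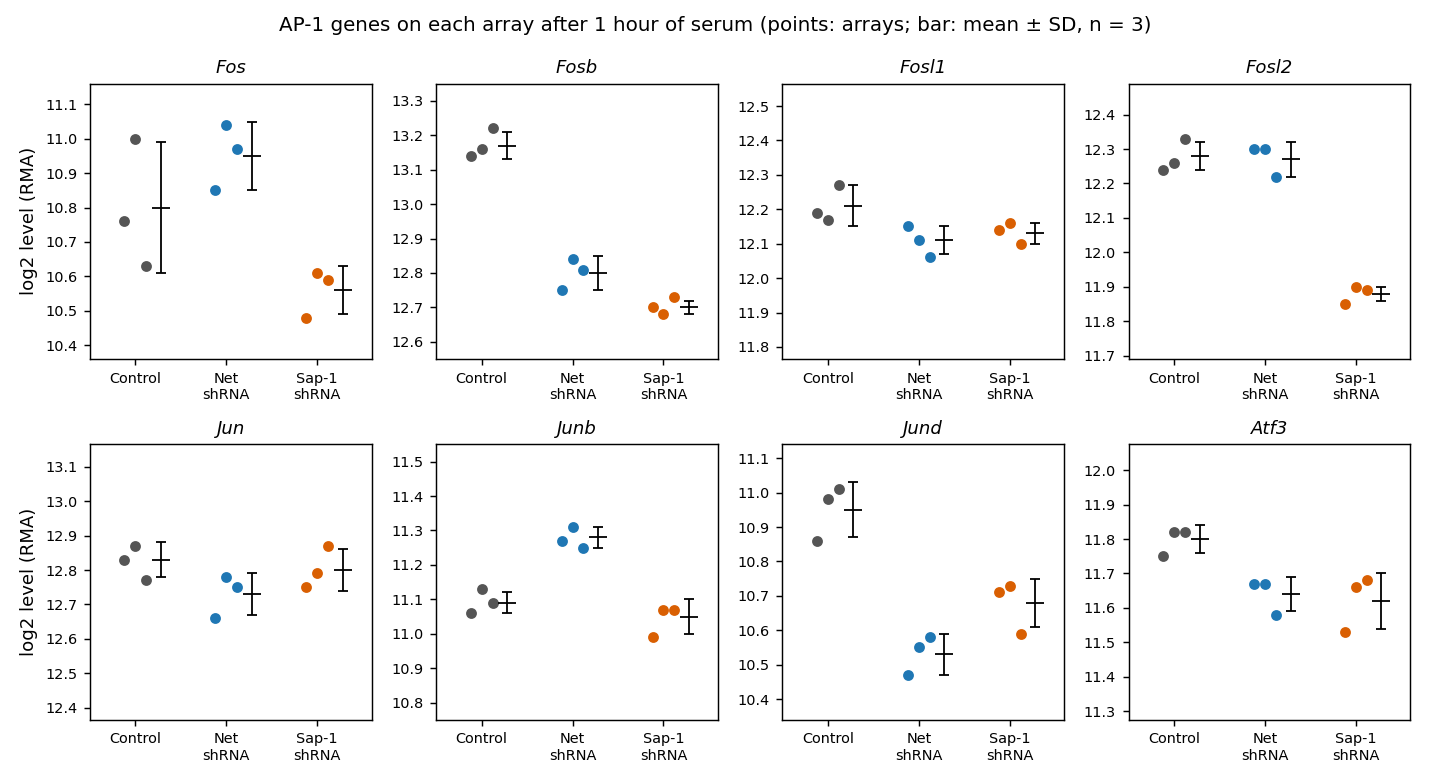
Log2 RMA level (vertical axis, every panel spanning 0.8 log2 units) of each AP-1 gene on the 9 arrays, in control (grey), Net shRNA (blue) and Sap-1 shRNA (orange) cells. Points are arrays and the bars beside them the mean ± SD of 3 arrays. Fosb and Jund lie below control in both knockdowns, Fosl2 is low only on the Sap-1 shRNA arrays, at 11.85 to 11.90, and Junb is high on the Net shRNA arrays.

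Among the Fos family genes, Fosb fell in both knockdowns. Fosb, whose protein also exists as a short form that lacks part of the activation region, stood at 13.14, 13.16 and 13.22 (log2 level) on the control arrays. It stood at 12.75, 12.84 and 12.81 on the Net shRNA arrays and at 12.70, 12.68 and 12.73 on the Sap-1 shRNA arrays. All 6 knockdown arrays were below all control arrays, and the Net shRNA arrays lay just above the Sap-1 shRNA arrays. Against control, the log2 difference was -0.37 in Net shRNA cells (SE 0.04, 1.30-fold lower, limma adjusted p = 8.6e-05) and -0.47 in Sap-1 shRNA cells (SE 0.04, 1.39-fold lower, adjusted p = 7.9e-06). The difference between the knockdowns was 0.10 (95% interval 0.01 to 0.19) and did not pass the test (adjusted p = 0.12). It passed under 4 of the other settings, among them array weights (0.12, adjusted p = 0.028) and an intensity trend (adjusted p = 0.035). The probe set does not separate the full-length and the short transcript.

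Fosl2 fell in Sap-1 shRNA cells and differed between the knockdowns. Fosl2 encodes Fra-2, a Fos relative without the strong activation domain of c-Fos. Its log2 levels were 12.24, 12.26 and 12.33 in control, 12.30, 12.30 and 12.22 in Net shRNA and 11.85, 11.90 and 11.89 in Sap-1 shRNA cells. The Sap-1 shRNA arrays lay below all others, and the control and Net shRNA arrays overlapped. The log2 difference from control was -0.40 in Sap-1 shRNA cells (SE 0.04, 1.32-fold lower, limma adjusted p = 2.9e-05), and Net shRNA was above Sap-1 shRNA by 0.39 (SE 0.04, adjusted p = 3.1e-05). In Net shRNA cells the difference from control had a 95% interval of -0.10 to 0.09 (adjusted p = 0.98).

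Fos itself differed between the knockdowns, with the control arrays in between. Fos encodes c-Fos, the member with the most transient response to serum. The control arrays were at 10.76, 11 and 10.63 on the log2 scale, the Net shRNA arrays at 10.85, 11.04 and 10.97 and the Sap-1 shRNA arrays at 10.48, 10.61 and 10.59. The control values were the most spread of any group (SD 0.19, against 0.10 and 0.07), overlapping the Net shRNA arrays and lying above all Sap-1 shRNA arrays. Net shRNA exceeded Sap-1 shRNA by 0.39 (SE 0.09, 1.31-fold, limma adjusted p = 0.005), the widest gap between knockdowns together with Fosl2. Neither knockdown passed against control, at 0.15 for Net (95% interval -0.03 to 0.34, adjusted p = 0.26) and -0.24 for Sap-1 shRNA (95% interval -0.43 to -0.05, adjusted p = 0.06). Both results shifted with single control arrays. Without control replicate 2 the Net difference was 0.26 (adjusted p = 0.028). Without control replicate 3 the Sap-1 difference was -0.32 (adjusted p = 0.016). Over all arrays left out, the Net and Sap-1 differences ranged from 0.07 to 0.26 and from -0.32 to -0.14. The Sap-1 difference lay near the threshold and passed under 9 of the other settings, the one without control replicate 3 included. Among them were an intensity trend (adjusted p = 0.041), cyclic loess (-0.26, adjusted p = 0.037) and dim genes below the median left out (adjusted p = 0.03).

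Fosl1 passed in no comparison of the main fit. It encodes Fra-1, a Fos relative that is itself a known AP-1 target. Its log2 levels ranged from 12.17 to 12.27 in control, 12.06 to 12.15 in Net shRNA and 12.10 to 12.16 in Sap-1 shRNA cells. Both knockdowns lay just below control, by a log2 difference of -0.10 (95% interval -0.20 to -0.01, limma adjusted p = 0.12) and -0.08 (95% interval -0.17 to 0.02, adjusted p = 0.24), and they overlapped each other. The Net difference passed with array weights (-0.12, adjusted p = 0.047).

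In the Jun family, Jund fell in both knockdowns. Jund encodes JunD, the Jun protein that resting fibroblasts already contain and that serum changes least. Its log2 levels were 10.86, 10.98 and 11.01 in control, 10.47, 10.55 and 10.58 in Net shRNA and 10.71, 10.73 and 10.59 in Sap-1 shRNA cells. Every knockdown array was below every control array, and the Net shRNA arrays were below the Sap-1 shRNA arrays. The log2 difference from control was -0.42 in Net shRNA cells (SE 0.05, 1.33-fold lower, limma adjusted p = 0.00025) and -0.27 in Sap-1 shRNA cells (SE 0.05, 1.21-fold lower, adjusted p = 0.0029). Net shRNA minus Sap-1 shRNA was -0.14 (95% interval -0.27 to -0.02, adjusted p = 0.079), and passed without Sap-1 shRNA replicate 3 (-0.19, adjusted p = 0.037) and after centring the arrays on their medians (-0.18, adjusted p = 0.031).

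Junb rose in Net shRNA cells and was the only member called higher than control. Junb encodes JunB, which can restrain c-Jun and is induced by serum. Its log2 levels were 11.06, 11.13 and 11.09 in control, 11.27, 11.31 and 11.25 in Net shRNA and 10.99, 11.07 and 11.07 in Sap-1 shRNA cells. The Net shRNA arrays stood above all others, and the control and Sap-1 shRNA arrays overlapped. The rise in Net shRNA cells was 0.18 (SE 0.04, 1.14-fold, limma adjusted p = 0.0065), and Net shRNA exceeded Sap-1 shRNA by 0.23 (SE 0.04, adjusted p = 0.0012). Sap-1 shRNA cells were at -0.05 against control (95% interval -0.14 to 0.04, adjusted p = 0.45).

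Jun passed in no comparison. Jun encodes c-Jun, the strongest activator of the Jun family. Its log2 levels ranged from 12.77 to 12.87 in control, 12.66 to 12.78 in Net shRNA and 12.75 to 12.87 in Sap-1 shRNA cells, so all 3 groups overlapped. The log2 difference from control was -0.10 in Net shRNA (95% interval -0.21 to 0.01, limma adjusted p = 0.21) and -0.02 in Sap-1 shRNA cells (95% interval -0.13 to 0.09, adjusted p = 0.79).

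Atf3, a stress-induced bZIP gene whose protein pairs with Jun proteins and often represses, was called lower in Sap-1 shRNA cells. Its log2 levels were 11.75, 11.82 and 11.82 in control, 11.67, 11.67 and 11.58 in Net shRNA and 11.53, 11.66 and 11.68 in Sap-1 shRNA cells. All 6 knockdown arrays were below the control arrays, and the knockdowns overlapped each other. The log2 difference was -0.17 in Sap-1 shRNA cells (SE 0.05, 1.13-fold lower, limma adjusted p = 0.024) and -0.15 in Net shRNA cells (SE 0.05, 1.11-fold lower, adjusted p = 0.051). The Sap-1 call was lost without control replicate 2 (-0.16, adjusted p = 0.075), control replicate 3 (-0.16, adjusted p = 0.078) or Sap-1 shRNA replicate 1 (-0.13, adjusted p = 0.092). The Net difference passed under 9 of the other settings, among them only the 6 arrays compared (adjusted p = 0.043) and quantile normalization (-0.16, adjusted p = 0.026).

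**Figure D2:**
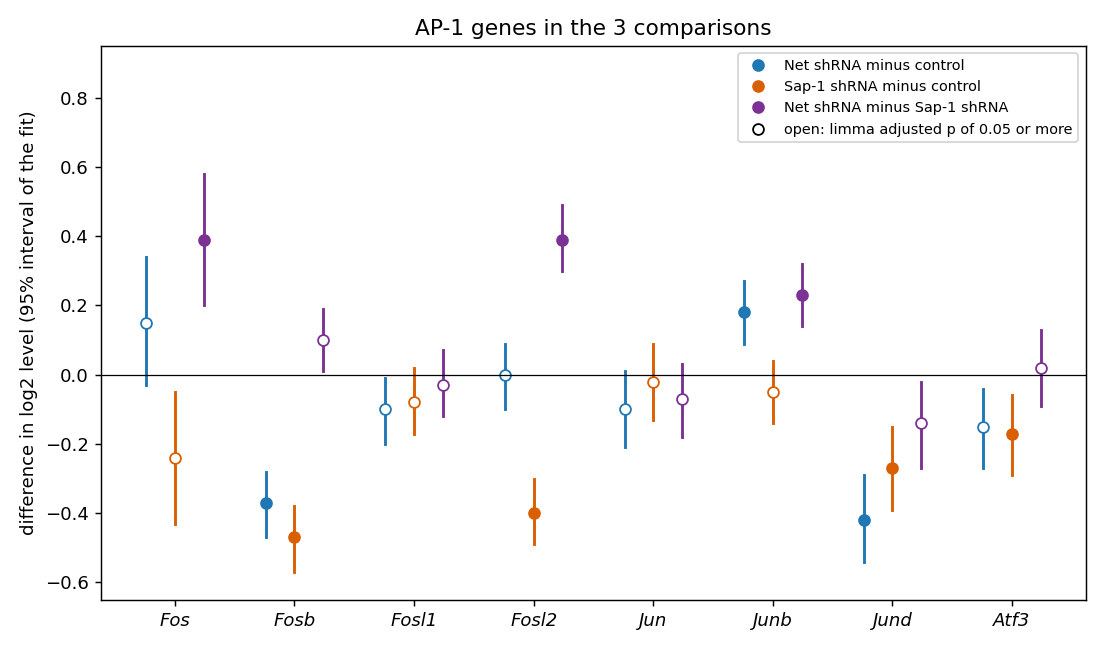
Difference in log2 level (vertical axis) of each AP-1 gene for Net shRNA minus control (blue), Sap-1 shRNA minus control (orange) and Net minus Sap-1 shRNA (purple), with 95% intervals of the fit over 9 arrays. Filled points passed at an adjusted p under 0.05. Fosb and Jund are filled below 0 in both knockdowns, and Fos, Fosl2 and Junb are filled above 0 between the knockdowns.

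In order of group means, Fosb, Fosl2 and Atf3 ran control, Net shRNA, Sap-1 shRNA from high to low, Fosl1, Jun and Jund ran control, Sap-1 shRNA, Net shRNA, and Fos and Junb ran Net shRNA, control, Sap-1 shRNA. Neighbours in these orders that did not pass were Net and Sap-1 shRNA for Fosb and Jund, control and Net shRNA for Fosl2, control and Sap-1 shRNA for Junb, each adjacent pair for Fos and Atf3, and every pair for Fosl1 and Jun.

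Counted together, 3 of the 8 genes passed in Net shRNA cells (1 higher, 2 lower), where 23.6% of all genes tested passed (13.4% higher, 10.2% lower). In Sap-1 shRNA cells 4 passed, all lower, where 29.7% of all genes passed (15.8% higher, 13.9% lower). Between the knockdowns 3 passed, all higher in Net shRNA cells, where 27.5% of all genes passed (14.2% higher, 13.3% lower). Among the 2429 genes whose mean level lay in the members' range, 10.72 to 12.89, the shares that passed were 43.8% (22.5% higher, 21.3% lower), 52.3% (28.3% higher, 24% lower) and 50.9% (24.7% higher, 26.2% lower) in the same order, so the number of members that passed is no result about them. The arrays of the groups compared were fully separate for 5, 6 and 5 of the 8 genes, and for 34.3%, 41% and 37.4% of all genes. Separate arrays were not counted among genes in the members' range of level, so these numbers are no result about the members either. The median log2 difference of the 8 genes was -0.10 with the Net and -0.21 with the Sap-1 shRNA, beside 0.00 and -0.02 over all genes. Both knockdowns share the control arrays, so falls seen in both are not independent of each other.

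The changes were small. The largest, that of Fosb in Sap-1 shRNA cells, was 1.39-fold, and it alone passed a limma test against a fold of 1.2, which 0 members passed in Net shRNA cells and 0 between the knockdowns. In that test, adjusted p was 0.18 for Jund and 0.23 for Fosb in Net shRNA cells, and 0.059 for Fosl2 in Sap-1 shRNA cells. Among all genes, 2.23% fell at least as far as Jund and 2.89% as far as Fosb in Net shRNA cells, and 3.35% fell as far as Fosb and 4.47% as far as Fosl2 in Sap-1 shRNA cells. These shares are over genes of all levels and were not taken among genes as bright as the members.

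Genes that lie beside some members on the chromosome moved as well, which was measured as the median log2 difference of the 50 nearest genes expressed above the median level. Around Junb that median was 0.19 in Net shRNA cells, with 28 neighbours higher and 0 lower, and Junb lay at -0.01 (limma adjusted p = 0.93) once it was taken off. Between the knockdowns Junb kept 0.11 after this step (adjusted p = 0.073). Jund, on the same chromosome, went against its neighbours: their median was 0.23 in Net shRNA cells, 34 were higher and 0 lower, and 0 of the 50 fell further than Jund. With the neighbours taken off Jund was at -0.65 in Net shRNA cells (adjusted p = 5.3e-06) and at -0.29 between the knockdowns (adjusted p = 0.0013).

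Around Atf3 the neighbours' median was -0.28 in Sap-1 shRNA cells, where 32 were lower and 0 higher, and 30 of them fell further than Atf3. With that median taken off, Atf3 was at 0.11 (limma adjusted p = 0.11) in Sap-1 shRNA cells, and Net minus Sap-1 shRNA turned from 0.02 to -0.31 (adjusted p = 0.00071). Other calls gained by this step were those of Fosl1, at -0.15 in Net shRNA cells (adjusted p = 0.018) and -0.17 between the knockdowns (adjusted p = 0.0095), of Atf3 in Net shRNA cells (-0.20, adjusted p = 0.014) and of Fos in Sap-1 shRNA cells (-0.28, adjusted p = 0.022). Fosb, Fosl2 and Fos kept the calls they had. The Fosb differences were -0.40 (adjusted p = 6.8e-05) and -0.51 (adjusted p = 5e-06) in Net and Sap-1 shRNA cells. Fosl2 was at -0.28 in Sap-1 shRNA cells (adjusted p = 0.00044), where its neighbours' median was -0.12. Fos differed by 0.43 between the knockdowns (adjusted p = 0.0024).

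**Figure D3:**
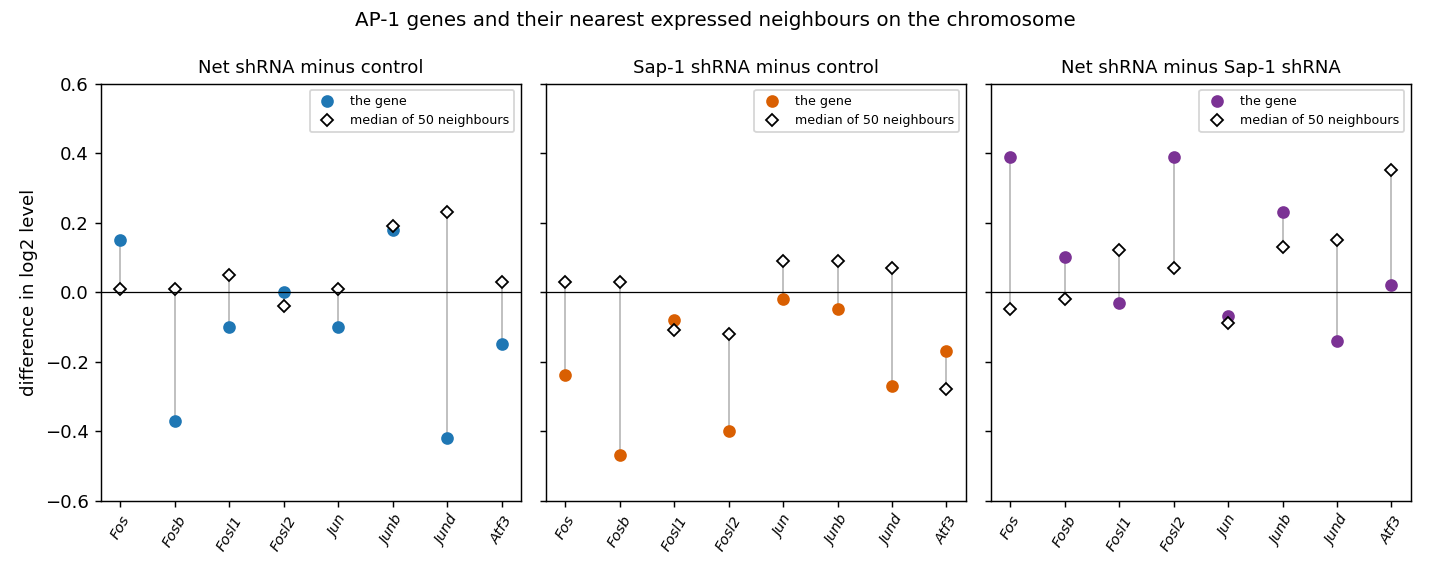
Difference in log2 level (vertical axis) of each AP-1 gene (coloured points) and the median difference of its 50 nearest expressed neighbours on the chromosome (open diamonds), in 1 panel per comparison. Junb lies on its neighbours' median in Net shRNA cells, at 0.18 and 0.19, Jund lies far below its own, and Atf3 lies above its neighbours in Sap-1 shRNA cells.

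The genes around AP-1 were counted in 4 lists, to be read against the 23.6%, 29.7% and 27.5% of all genes that passed for Net shRNA against control, Sap-1 shRNA against control and Net against Sap-1 shRNA, and against 43.8%, 52.3% and 50.9% among genes as bright as the members. The latter shares are matched to the members' levels and not to those of the lists, which also hold dimmer and brighter genes. No list was tested as a whole. Of 13 regulators of Fos and Jun transcription, 2 were higher and 5 lower in Net shRNA cells, with a list median of -0.06. Besides Elk3 and Elk4, the Srf coactivator gene Mrtfa fell by 0.22 (SE 0.04, limma adjusted p = 0.0028) and Atf1, of the CREB family, by 0.22 (SE 0.06, adjusted p = 0.015). In Sap-1 shRNA cells 2 were higher and 5 lower, with a median of -0.09. There Mef2c, a MADS-box factor gene, rose by 1.53 (SE 0.05, adjusted p = 4.5e-09), from 8.39 to 9.92, and Mef2a rose by 0.28 (SE 0.05), while Stat3, which acts at the sis-inducible element of Fos, fell by 0.61 (SE 0.05, adjusted p = 2e-06). Srf fell by 0.19 in Sap-1 shRNA cells (SE 0.05, adjusted p = 0.0085) and was at 0.01 in Net shRNA cells (adjusted p = 0.96), and Elk1 was at 0.02 and -0.08 (adjusted p = 0.85 and 0.27). Between the knockdowns 3 were higher in Net shRNA cells and 4 lower, among them Elk4 (1.09), Stat3 (0.77), Mef2c (-1.35) and Elk3 (-0.30).

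Of 26 kinases and stability regulators of Fos and Jun, 19 were measured. In Net shRNA cells 3 of these were lower and 1 higher: the Jun kinase gene Mapk8 (JNK1) fell by 0.30 (SE 0.06, limma adjusted p = 0.0028), the ubiquitin ligase gene Itch by 0.25 (SE 0.06) and the ribosomal S6 kinase gene Rps6ka3 by 0.30 (SE 0.08), and the pseudokinase gene Trib1 rose by 0.14. In Sap-1 shRNA cells 7 were lower and 2 higher, where 13.9% of all genes were lower and 15.8% higher, and 52.3% of genes as bright as the members passed. Trib1 fell by 0.34 (SE 0.04, adjusted p = 0.00013), Cop1, whose ubiquitin ligase marks c-Jun for degradation, by 0.29 (SE 0.05) and the stress kinase gene Map3k5 by 0.38 (SE 0.07), and Map2k1, which encodes the ERK activator MEK1, rose by 0.40 (SE 0.05, adjusted p = 0.00016). Between the knockdowns 6 were higher and 6 lower in Net shRNA cells, those with the smallest adjusted p being Trib1 (0.48), Map2k1 (-0.52), Map3k5 (0.50) and Mapk8 (-0.39). The list medians were -0.05, -0.02 and -0.02 in the 3 comparisons.

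Of 20 other bZIP genes whose proteins pair with or resemble AP-1, 19 were measured. Maf, a large Maf factor gene, fell by 1.09 in Net shRNA cells (SE 0.07, limma adjusted p = 7.3e-07) and by 1.35 in Sap-1 shRNA cells (SE 0.07, adjusted p = 6.1e-08), from a control mean of 10.04 to 8.95 and 8.69. In all, 6 of the 19 were lower and 0 higher in Net shRNA cells, where 10.2% of all genes and 21.3% of genes as bright as the members were lower, including Jdp2, a repressor that pairs with Jun proteins (-0.23), Atf5 (-0.17) and Atf7 (-0.17). In Sap-1 shRNA cells 1 was higher, the small Maf gene Mafk (0.31, SE 0.07), and 2 were lower, Maf and Atf7 (-0.16). Between the knockdowns 3 were higher and 5 lower in Net shRNA cells, among them Ddit3 (-0.39), Atf6 (-0.33), Jdp2 (-0.22) and Maff (0.21). The list medians were -0.09, -0.05 and -0.05.

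Of 35 genes reported as AP-1 targets, 32 were measured. In Net shRNA cells 13 were higher and 4 lower (list median 0.08, all genes 0.00), where 23.6% of all genes and 43.8% of genes as bright as the members passed. In Sap-1 shRNA cells 11 were higher and 3 lower (list median 0.07, all genes -0.02), where these shares were 29.7% and 52.3%. The cytokine gene Lif rose by 1.19 in Net shRNA cells (SE 0.06, limma adjusted p = 2.9e-07) and by 0.30 in Sap-1 shRNA cells (SE 0.06, adjusted p = 0.0039). The chemokine gene Ccl2 rose by 0.83 in Net shRNA cells (SE 0.06) but fell by 1.25 in Sap-1 shRNA cells (SE 0.06), a difference between knockdowns of 2.09 (SE 0.06, adjusted p = 5.6e-10). The gelatinase gene Mmp9 likewise rose by 0.60 and fell by 0.64, with 1.24 between them (SE 0.05, adjusted p = 8.1e-09).

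The cyclin D1 gene Ccnd1 moved the other way, falling with a difference of -0.23 in Net shRNA cells (SE 0.04) and rising by 0.78 in Sap-1 shRNA cells (SE 0.04), so that Net minus Sap-1 shRNA was -1.01 (limma adjusted p = 1.1e-08). Hmox1, the haem oxygenase gene, rose by 0.78 and 0.32 and the matrix gene Tnc by 0.59 and 0.99. Between the knockdowns 10 targets were higher in Net shRNA cells and 7 lower (list median 0.02). The collagenase and stromelysin genes Mmp13, Mmp3 and Mmp10 passed in none of the 3 comparisons. Their group means, from 5.4 for Mmp3 to 6.62 for Mmp10, lay below the median of all genes (7.78 to 7.82). At such dim levels a change could go unseen, so they are not shown to be unchanged. The members' part in any of these changes was not tested.

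**Figure D4:**
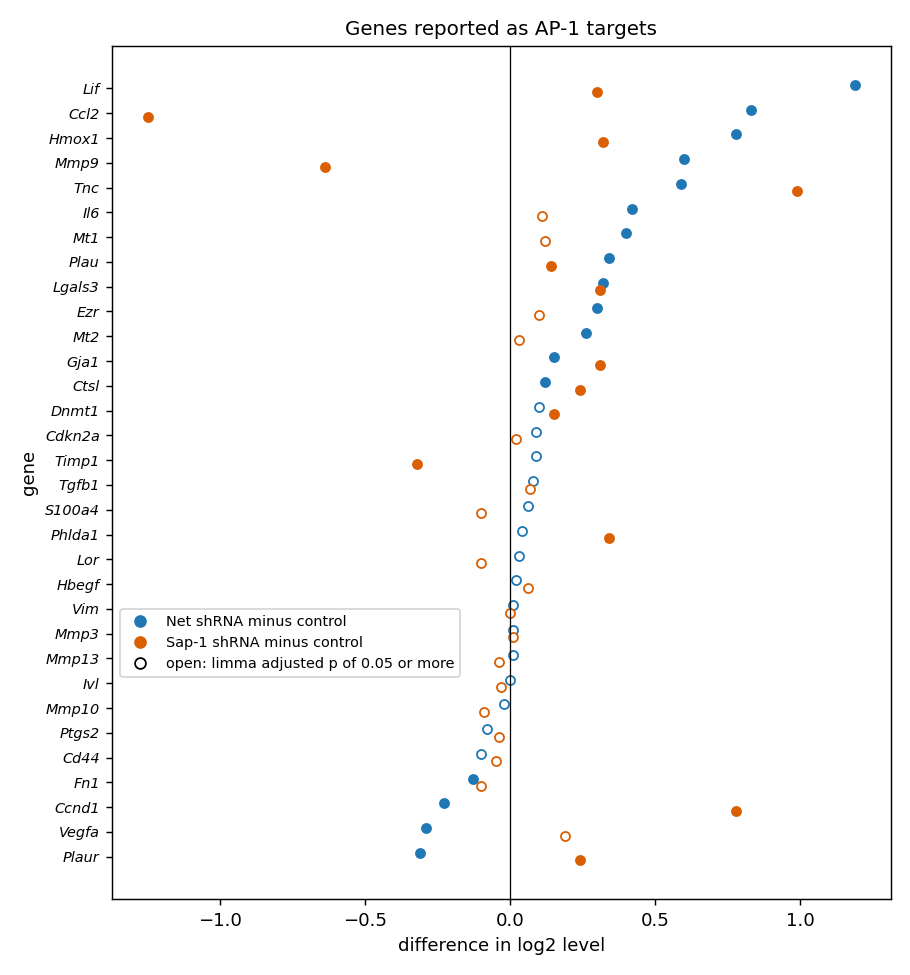
Difference in log2 level (horizontal axis) of 32 genes reported as AP-1 targets, for Net shRNA minus control (blue) and Sap-1 shRNA minus control (orange), ordered by the former. Filled points passed at an adjusted p under 0.05. Ccl2 and Mmp9 are filled on opposite sides of 0 and Ccnd1 the other way round, and Lif, Hmox1 and Tnc are filled above 0 in both.

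The genes whose log2 levels were most like each member's over the 9 arrays were taken by Pearson's r, as a description, since the arrays fall into 3 groups. Predicted genes, small RNA genes, genes with clone names and olfactory and vomeronasal receptor genes were passed over. Fosb was closest to Srgap1 (0.996), Anpep (0.995) and Parp8 (0.994), and Fosl2 to Tmem214 (0.995), Aebp1 (0.994) and Pea15a (0.994). Junb was closest to Pctp (0.989), Ptger4 (0.984) and Exoc7 (0.982), and Jund to Smad6 (0.979), Mrps26 (0.978) and Fance (0.976). For Atf3 they were Tbx4 (0.985), Ankle2 (0.968) and Zfp740 (0.956), and for Fos they were Fam83d (0.973), Btg2 (0.954), itself an early serum response gene, and Apba1 (0.949). Among the genes not passed over, the number with r above 0.95 was 353 for Fosl2, 161 for Fosb, 107 for Junb, 25 for Jund, 5 for Atf3 and 2 for Fos.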

How the data were processed

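Total RNA of 9 samples, 3 per group, was hybridised to 1 array each. The deposited values are log2 levels of probe sets on each array, which the authors obtained by RMA using the Affymetrix Expression Console (source: the submitters' processing notes); version, settings and genome build are not given in the sources used here. RMA subtracts background, equalises the arrays' distributions and summarises probes, which compresses small folds and removes a change shared by most genes. No detection calls were used. Precision is set by the number of arrays, 3 per group.

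Of 28815 probe sets, 21780 had a single symbol, 1605 several and 5430 none in the platform annotation. Symbols were updated through Entrez IDs in a RefSeq table (GRCm38.p6), which held 21689 of them. For the 998 genes with several probe sets, the one with the highest mean was used, which left 19935 genes. Genes without a probe set of a single symbol were not analysed here.

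Differences were fitted with limma 3.58.1 in R 4.3.3 (lmFit, eBayes) in 1 model of the 9 arrays, a mean for each group, with 6 residual and 4.7 prior degrees of freedom, and Benjamini-Hochberg adjustment over all 19935 genes of a comparison; a gene passed, and is called higher or lower, at an adjusted p under 0.05. Values are differences of log2 means with the standard error of the fit. The members and lists were chosen with earlier results of these data known. Besides the members and the targeted factors, up to 4 genes per list and comparison that passed with the smallest adjusted p, and the 3 genes most like each member that passed, are named by rule; Ccl2, Mmp9, Hmox1, Tnc, Lif and Ccnd1 are followed across comparisons. The Mmp genes that did not pass were named after their values were seen. The script was tested on simulated arrays of these genes, with 50 genes changed at each size: of those changed in the Net comparison, 6% of the 1.1-fold, 60% of the 1.2-fold and 100% of the 1.5-fold changes were recovered, and 6 unchanged genes were called. Far fewer genes were changed there than the 4714 that passed in the Net comparison, which makes the adjustment stricter. These shares therefore do not give the sensitivity of the comparisons. Other settings tried were the replicate number as a block, trended variances, array weights, other normalizations, neighbouring genes, filters on dim genes, the mean of probe sets, stricter thresholds, only the arrays compared, and each array left out.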

Additional observations from a re-analysis of the deposited data

How the results depend on the processing

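Across the alternatives, 397 of 456 member differences kept their direction and their side of the threshold, and 13 changed sign. Of those that kept their sign, 32 gained and 14 lost the call. With the neighbours' median taken off, Junb in Net and Atf3 in Sap-1 shRNA cells changed sign and also lost their calls. Atf3 between the knockdowns changed sign and gained a call there. Many of the member differences could not change direction. The block, trended variances, filters on dim genes, stricter thresholds and only the arrays compared left each difference as it was. The mean of probe sets used the same values, since each member had 1 probe set. The count of 397 is therefore no measure of how stable the directions are. In Net shRNA against control, 3 members passed, 5 with array weights and 0 in the test against a fold of 1.2. In Sap-1 shRNA against control, 4 passed and 1 did in the test against a fold of 1.2. Between the knockdowns 3 passed, 5 with array weights, 5 after quantile normalization, 5 with the neighbours' median taken off and 0 in the test against a fold of 1.2, where over all genes 758, 1478 and 1419 passed in the 3 comparisons. With each array left out, 3 to 4 members passed in each comparison. The cause of these differences was not tested, except that a fold threshold is stricter by construction. Sign changes of Fosl2 in Net shRNA cells were to 0 after quantile normalization, 0.03 with the neighbours' median taken off, and a range of -0.02 to 0.02 with arrays left out. With the neighbours' median taken off, Junb in Net shRNA cells came to -0.01, Fosl1 and Atf3 in Sap-1 shRNA cells to 0.01 and 0.11, and Jun and Atf3 between the knockdowns to 0.01 and -0.31. Atf3 between the knockdowns also came to 0 with array weights and -0.02 with each array centred, and ranged from -0.03 to 0.05 with arrays left out, as Jun in Sap-1 shRNA cells did from -0.06 to 0.01. With the replicate number as a block 3, 5 and 3 members passed, Fos in Sap-1 shRNA cells being the one gained (-0.24, adjusted p = 0.02). Deviations from the group means correlated at -0.11 to 0.36 between same-numbered arrays and at -0.43 to 0.30 between differently numbered arrays of different groups. Of 9 arrays, 4 correlated best with an array of their own number, so the numbers were not taken as pairing. Differences under 1.2-fold are small for 3 arrays a group, though some passed, such as Junb in Net shRNA cells (1.14-fold, limma adjusted p = 0.0065). How many such differences are missed was not tested at the share of genes that passed here.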
